A study of Mus musculus with 6 samples.

Results

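The genes described are 70 microtubule, motor and cilium genes of the mouse cochlea, chosen by symbol from the authors' deposited lists of genes changed by treatment with mesenchymal stromal cells (MSCs) after sound trauma. They are the tubulins, kinesins, axonemal dyneins, cilium and flagellum proteins, centrosome proteins and microtubule-associated proteins among 3716 named genes in those lists, in a table of 41096 genes. The authors listed 62 of them as down-regulated and 8 as up-regulated in MSC treated animals. Because a comparison of the same groups chose them, their differences are given as a description and not as a test.

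Female C57BL/6 mice (strain spelled C56Bl/6 in the labels) aged 4 weeks were exposed to a narrow band sound of 16 kHz for 4 h. MSC treated animals then received human cells from Wharton's jelly, the connective tissue of the umbilical cord, in 1 µl through the posterior semicircular canal of the left ear, 48 h after the noise. The control animals, called sound trauma, carry the same noise exposure. The labels describe them as exposed to noise only and give RNA extraction 2 days after treatment, whereas the methods of the study describe an injection of artificial perilymph and 72 h. Sequencing was of total RNA from the left cochlea, and 3 animals per group were analysed here, sound trauma specimens 6, 8 and 10 and MSC treated specimens 13, 18 and 20. Replicates per condition number 5 in the methods, so it is not known whether the authors' lists and mean FPKM rest on these animals alone. No animals without noise were analysed, and the whole dissected cochlea was extracted, so a lower value cannot be told apart as fewer cells of a type or as less RNA per cell. Each specimen number was taken as a separate animal, which the labels do not state in words, and p-values measure only the spread between these specimens.

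Microtubules are hollow filaments of alpha- and beta-tubulin that carry long-range transport in axons and form the core, or axoneme, of cilia. Kinesins and cytoplasmic dynein walk along them with cargo, while axonemal dyneins are fixed to the axoneme and bend motile cilia. In the cochlea, microtubules fill the axons of spiral ganglion neurons and stiffen the pillar cells, and the cilium of the cochlear hair cell, the kinocilium, is lost as the organ matures. Motile cilia are carried by multiciliated cells such as those of the airways, the middle ear and the brain ventricles.

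The libraries held between 9170390 and 11030863 reads on genes, and values are scaled counts, the read counts multiplied by 1 factor per library as deposited. Sound trauma specimens 8 and 6 had the highest sums in several marker lists, specimen 8 for central neurons and specimen 6 for skeletal muscle and pituitary. Over all named central neuron markers (14 of 14 in the list), the summed scaled count was 46995 in specimen 8 and 17839 in specimen 6, against 9463 in specimen 10 and 10071 to 14329 in the MSC treated animals. Specimen 6 had the highest sums for skeletal muscle markers (11 of 12 named; 902929, against 36716 and 211498 in specimens 8 and 10 and 78113 to 514286 in MSC treated animals) and for pituitary markers (9 of 9 named; 297435, against 1256 to 3644 and 1278 to 22358). Of the pituitary markers, Fshb, Pou1f1 and Gnrhr were at 0 in at least 1 other library. Among defining hair cell markers, 3 of 13 had a name. Their sums were lowest in specimens 8 and 6 (272 and 291), against 674 in specimen 10 and 488 to 637 in MSC treated animals. Only genes in the authors' lists carry a name in the deposited files, so every marker sum rests on genes that the authors chose in this same comparison. Beside most differences between the groups, the lowest and highest value is given that was reached when each of the 6 animals was left out in turn.

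In Cfap44 and Spag16, both of the axoneme group, the promoter held a palindrome like the X-box, the element bound by RFX factors, which are known for switching on ciliary genes. The sequences are shown for these axonemal members as reference sequence, and no value here bears on their use. They are from the RefSeq promoter table of GRCm38.p6 and read 5′ to 3′ on the gene's strand, with the palindrome in capitals. In Cfap44 the searched spelling lies on the opposite strand. The Cfap44 window ends directly before the annotated start, and the Spag16 window ends further upstream. For Cfap44 the window is chr16:44394729-44394798, plus strand, and for Spag16 it is chr1:69826824-69826923, plus strand.
Cfap44: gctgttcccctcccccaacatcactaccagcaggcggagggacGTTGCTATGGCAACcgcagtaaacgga
Spag16: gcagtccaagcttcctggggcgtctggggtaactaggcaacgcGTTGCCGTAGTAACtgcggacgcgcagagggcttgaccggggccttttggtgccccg
The spelling searched, GTTNCC followed by 3 bases of any kind and GNAAC, was found on either strand of the 250 bases before the start in 2 of 24 axonemal members with a promoter sequence (8.33%) and in 0.784% of 27025 genes. It was 1 of 9 spellings searched after the values had been seen. Of the stricter spellings, GTTGCC followed by NNGGNAAC or NNGNNAAC and GTTNCC followed by NNGGNAAC were each in 0 of the 24 (0.292%, 0.385% and 0.444% of all genes). Of the looser ones, GTTGCC followed by NNGG was in 1 of the 24 (4.17%) and in 2.12% of all genes. A looser palindrome, GTNNCC followed by NNGGNNAC, was in 4 of the 24, Cfap126, Cfap206, Cfap77 and Tekt4 (16.7%), and in 1.81% of all genes. The shorter GTTGCC, which can lie inside most of these, was present in 5 of the 24 (20.8%), in 9 of 31 other members (29.0%) and in 11.8% of all genes, and TGTTTAC, the core of the forkhead motif, in 0 of the 24 and in 3.54%. The forkhead-like TGTTTG was in 4 of the 24 (16.7%) and in 18.0% of all genes. Of the 70 members, 55 had a promoter sequence under their symbol.

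The beta-tubulin members encode nearly the same protein body and differ in the acidic tail at the end of the chain, the stretch in which motors and modifying enzymes tell the isotypes apart. The last coding bases before the stop codon are shown from the reference transcripts (GENCODE vM21, GRCm38), with the bases that are not shared by all 3 in capitals.
Tubb4a: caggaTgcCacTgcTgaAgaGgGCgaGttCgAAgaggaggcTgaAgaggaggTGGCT
Tubb4b: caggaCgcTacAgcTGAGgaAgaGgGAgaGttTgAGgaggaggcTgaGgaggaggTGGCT
Tubb5: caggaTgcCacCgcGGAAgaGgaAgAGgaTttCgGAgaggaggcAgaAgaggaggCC
Over the whole coding sequence Tubb4a was 83.2% identical to Tubb4b and 83.9% identical to Tubb5, with longest identical runs of 38 and 30 bases. How any reads shared between these genes were counted is not given in the sources used here. The same holds for Tuba4a and Tuba8 (80.9% identical, longest run 38 bases) and for Spag6l and its neighbour in sequence Spag6 (88.0%, 65 bases).

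Most members were highest in a single sound trauma animal. Specimen 8 held the highest value of 53 of the 70 members and specimen 6 of 8, while specimen 20 led for 6, specimen 10 for 2, specimen 18 for 1 and specimen 13 for 0. Of all 15970 genes tested, 28.2% were highest in specimen 8 and 21.1% in specimen 6. The median log2 difference of MSC treated minus sound trauma, on the log2(scaled count + 1) scale, was -0.52 over the listed down-regulated members and 0.34 over the listed up-regulated ones, against 0.001 over all genes tested. With each animal left out in turn, the first of these lay between -0.75 (without specimen 10) and -0.26 (without specimen 8), and the second between 0.18 (without specimen 6) and 0.47 (without specimen 10).

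None of the 65 members that passed the filter on low counts had an adjusted p under 0.05 in limma, in edgeR, in DESeq2 or in limma-voom, and over all genes tested this background was also 0% in each tool. The smallest adjusted p of any gene in limma was 0.954. At an unadjusted p under 0.05, limma had 2 members lower, Dnah9 and Tekt1 (background 0.67% of genes), and 0 higher (background 1.68%). The edgeR quasi-likelihood test had 5 lower members at that limit (background 1.62%), DESeq2 had 9 (3.45%) and limma-voom 2 (0.601%), with 0 higher members in each (backgrounds 1.63%, 1.56% and 1.58%). In 6 members, Dnah1, Dnah9, Dnaic1, Spag1, Tekt1 and Ift43, all sound trauma values lay above all MSC treated values (2.92% of genes), and in Bbs12, Kif20b and Dclk3 they lay below (4.25%). The comparison chose the members, so nothing is read from these counts. The 5 members that did not pass the filter, Cfap157, Cfap58, Spag17, Tekt4 and Tekt5, are given as values only.

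**Figure D1:**
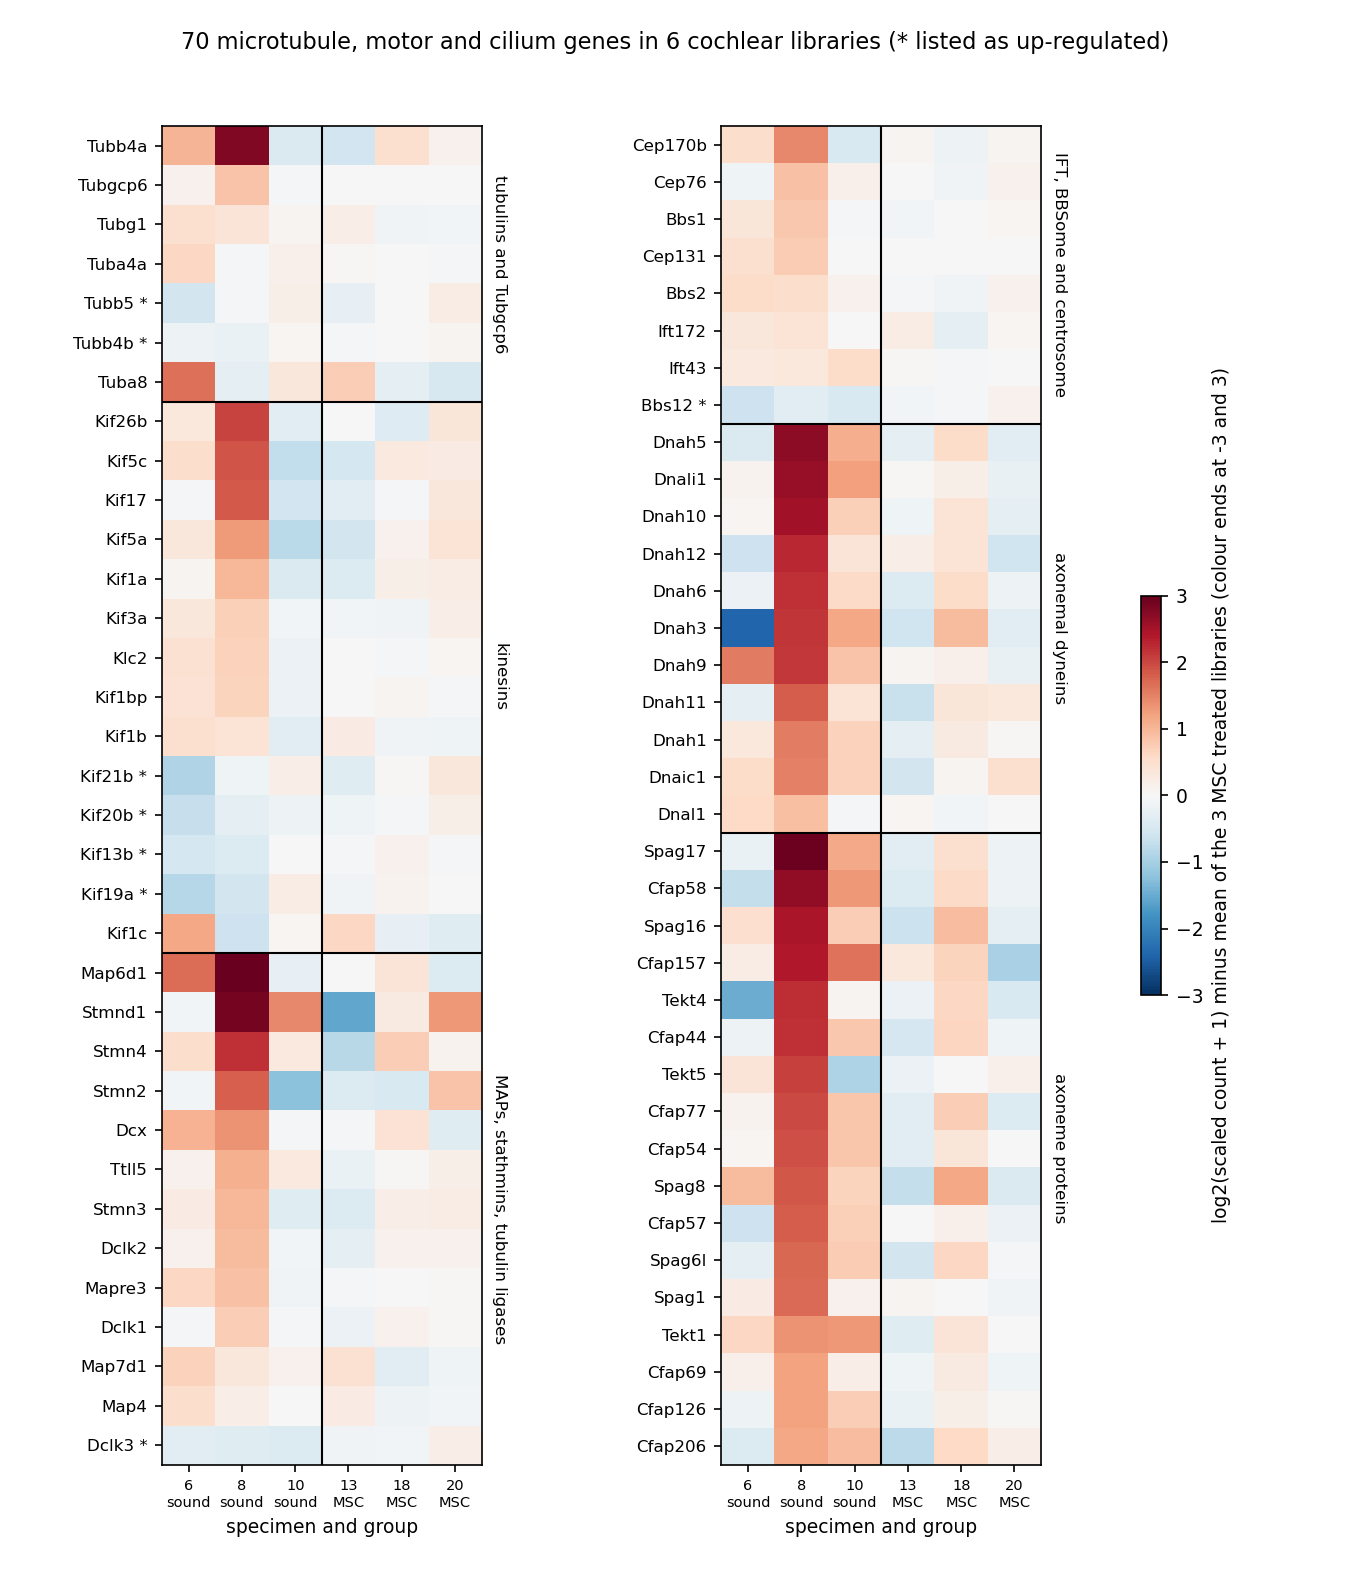
Each row is 1 of the 70 genes and each column 1 library (specimen number and group); colour is log2(scaled count + 1) minus the mean of the 3 MSC treated libraries, from blue (lower) to red (higher), and an asterisk marks genes listed as up-regulated. Specimen 8 is the reddest column for the 28 axonemal genes on the lower right, specimen 10 is the next for 19 of them, and the listed up-regulated genes are blue or pale in specimens 6 and 8.

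The axonemal dyneins and axoneme proteins, 28 genes, were highest in specimen 8 without exception. The median axonemal dynein stood 2.15 above the MSC treated mean on the log2 scale in specimen 8, 0.70 above it in specimen 10 and 0.07 in specimen 6, and the median axoneme protein stood at 1.93, 0.77 and 0.06. Specimen 10 exceeded specimen 6 in 23 of the 28 genes (51.6% of all genes tested) and was the second highest library in 19, followed by specimen 18 in 5 and specimen 6 in 4. The median log2 difference of MSC treated minus sound trauma was -0.86 for the dyneins and -0.84 for the axoneme proteins that passed the filter, and -0.33 and -0.31 without specimen 8. Without specimen 6 these medians were -1.38 and -1.26.

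**Figure D2:**
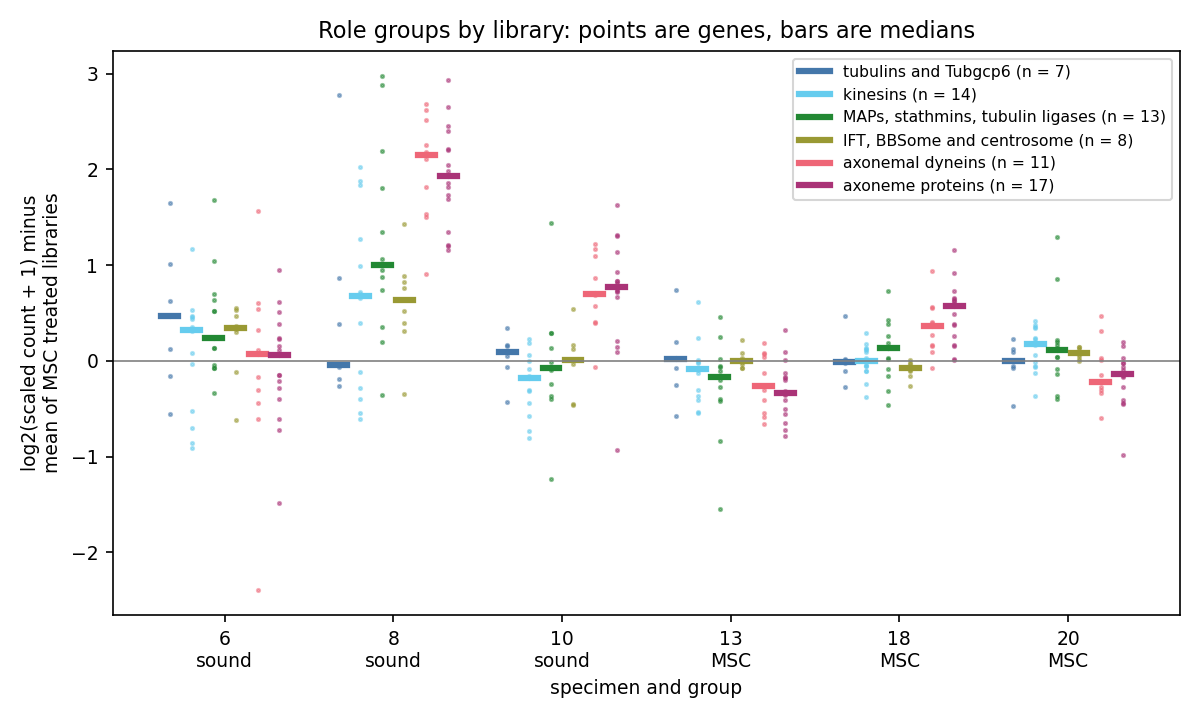
For each library on the horizontal axis, points show every gene of the 6 role groups and bars their medians, as log2(scaled count + 1) minus the mean of the MSC treated libraries. In specimen 8 the bars of the axonemal dyneins (2.15) and axoneme proteins (1.93) lie above those of the kinesins (0.68) and tubulins (-0.04), and in specimen 10 they are the bars that lie clearly above 0.

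Among the axonemal dyneins, the 8 heavy chains (of 15 Dnah genes in RefSeq) are the motors themselves. In each list of values that follows, the first 3 are scaled counts in sound trauma specimens 6, 8 and 10 and the last 3 those in MSC treated specimens 13, 18 and 20. Dnah5, a heavy chain of the outer arm, had 30.1, 269.6 and 88.4 against 34.3, 61.3 and 33.0, a log2 difference of -1.11 (SE 0.77, limma adjusted p 0.954) that was -0.33 without specimen 8 and -1.89 without specimen 6. Its value in specimen 6 was the lowest of the 6, so the groups overlapped through this animal, while specimens 8 and 10 lay above all MSC treated values. Dnah9, another outer arm heavy chain, had 129.8, 190.3 and 79.5 against 45.7, 48 and 36.9. All 3 sound trauma values lay above, and the log2 difference of -1.51 (SE 0.35, unadjusted p 0.00391, adjusted p 0.954 in limma) ranged from -1.84 without specimen 10 to -1.21 without specimen 8. Dnah9 was also the heavy chain in which specimen 6 came second, ahead of specimen 10.

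Dnah6, a heavy chain of the inner arm, had 60.3, 312 and 101 against 50.9, 100.1 and 61.2, with a log2 difference of -0.86 (SE 0.61, limma adjusted p 0.954) that was -0.20 without specimen 8 and -1.38 without specimen 6. Specimen 8 alone stood apart, since specimens 10 and 18 had the same level. Dnah3, also an inner arm heavy chain, had 3.48, 103 and 51.8 against 14.5, 43.9 and 17.5, the widest spread of the dyneins. The value in specimen 6 is 3 reads, the detection floor used here, and the log2 difference of -0.31 (SE 1.17, limma adjusted p 0.981) ranged from -1.66 without specimen 6 to 0.61 without specimen 8 and was also positive, at 0.12, without specimen 10. It was -1.07 in edgeR and in DESeq2. The other heavy chains, Dnah1, Dnah10, Dnah11 and Dnah12, were all highest in specimen 8, at 89.9 to 192, and had 11.6 to 45.2 in specimen 6 and 24.1 to 68.8 in specimen 10. In MSC treated specimens 13, 18 and 20 they had 20.8 to 32.2, 24.5 to 66.4 and 11.6 to 64.1. The log2 difference of Dnah12 was -0.68 (SE 0.74), and it ranged from -1.32 without specimen 6 to 0.11 without specimen 8.

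The remaining dynein members are smaller subunits. Dnal1, a light chain of the outer arm, was the most abundant in scaled counts, with 269, 332 and 169.7 against 186, 166 and 178. Specimens 6 and 8 were high and specimen 10 lay among the MSC treated animals, whereas specimen 10 was second highest in 6 of the 8 heavy chains. Its log2 difference was -0.48 (SE 0.26, limma adjusted p 0.954), -0.27 without specimen 8 and -0.76 without specimen 10. Dnali1, a light intermediate chain of the inner arm, had 18.5, 109.9 and 41.1 against 17.7, 19.4 and 14.6, and Dnaic1, an intermediate chain of the outer arm, had 25.5, 50.7 and 28.6 against 11.4, 18.4 and 24.3. In both, specimen 10 followed specimen 8.

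The axoneme proteins comprised 9 of 34 Cfap, 5 of 12 Spag and 3 of 5 Tekt genes in RefSeq. Cfap44, whose promoter is shown above and whose protein tethers dynein of the inner arm, had 34.8, 182 and 68.8 against 27.0, 61.3 and 34.9. Specimen 8 was high, and specimens 10 and 18 were close to each other. Spag16, a protein of the central pair apparatus with the other printed promoter, had 17.4, 69.8 and 20.5 against 7.27, 23.5 and 9.71. Here specimen 18 exceeded specimen 10. The log2 differences were -0.95 (SE 0.63) for Cfap44 and -1.23 (SE 0.66) for Spag16, with a limma adjusted p of 0.954 for each. They ranged from -1.51 (without specimen 6) to -0.33 (without specimen 8) for Cfap44 and from -1.69 (without specimen 18) to -0.62 (without specimen 8) for Spag16.

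Cfap126, a protein of the basal body known as Flattop, had the highest level per length in the group, with authors' mean FPKM of 4.75 (sound trauma) and 3.02 (MSC treated). Its scaled counts were 46.4, 119.5 and 85.8 against 44.7, 58.2 and 52.4, with specimen 6 inside the range of the MSC treated group. Spag1, which helps to assemble dynein arms in the cytoplasm, had 56.8, 157 and 52.7 against 50.9, 48 and 44.7. All sound trauma values lay above, but specimens 6 and 10 did so by a few counts, and the log2 difference of -0.69 (SE 0.44, limma adjusted p 0.954) ranged from -0.97 without specimen 10 to -0.19 without specimen 8. Tekt1, a tektin filament protein inside the doublet wall, had 33.6, 56.4 and 55.4 against 16.6, 28.6 and 21.4. Its log2 difference of -1.09 (SE 0.34, unadjusted p 0.0166, adjusted p 0.954 in limma) ranged from -1.33 without specimen 6 to -0.91 without specimen 13.

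The other axoneme proteins Cfap54, Cfap57, Cfap69, Cfap77, Cfap206, Spag6l and Spag8 had 42.1 to 118 in specimen 8, 10.4 to 55.6 in specimen 6 and 17.9 to 58.1 in specimen 10. In MSC treated specimens 13, 18 and 20 they had 6.23 to 45.7, 18.4 to 60.3 and 7.77 to 45.6, which overlapped with specimens 6 and 10. In the genes that did not pass the filter, specimen 8 was likewise the highest. Spag17, a central pair protein, had 4.64, 48.8 and 13.4 against 4.16, 8.17 and 4.85. Cfap58 had 2.32, 33.5 and 12.5 against 3.12, 7.15 and 3.88, and Cfap157, Tekt4 and Tekt5 had 29.6, 42.1 and 27.7 in specimen 8. Libraries at or under the floor of 3 reads were specimens 6 and 13 for Cfap58, specimen 20 for Cfap157, specimen 6 for Tekt4 and specimen 10 for Tekt5.

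Of 15 markers of ciliated and secretory airway epithelium 6 had a name, and their summed scaled counts were 836, 3595 and 1692 for sound trauma against 608, 1329 and 1051, so that specimen 8 was highest, specimen 10 next and specimen 13 lowest. None of the 6 was at 0 in any library, and Foxj1 and Dynlrb2 among them are themselves ciliary genes. The most abundant, Cyp2f2, a cytochrome P450 of airway secretory cells, had 649, 2591 and 1287 against 428, 805 and 836 and made up most of each sum. Bpifa2, a secreted protein listed as up-regulated, was highest in specimen 18 instead, with 5.79, 49.7 and 28.6 against 20.8, 268 and 3.88. Choroid plexus markers (9 of 15 named) were high in specimens 6 and 8, with sums of 8433 and 5749 against 377 in specimen 10 and 338 to 451 in MSC treated animals. Most of these sums was Ttr, with 7414 and 4927 in specimens 6 and 8, and the median marker stood 2.32 and 2.67 above the MSC treated mean on the log2 scale in these animals and at -0.24 in specimen 10. The part of other cell types in the axonemal values was not tested.

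Of a list of 63 other genes of motile cilia, 30 were named and are no members. They carry a name because the authors listed them as changed, 29 of them as down-regulated, so their direction was set by that choice and they are no independent set. Specimen 8 was highest in 28 of the 30, specimen 10 exceeded specimen 6 in 23, and the median log2 difference was -0.82 over the 27 that passed the filter, -0.26 without specimen 8 and -1.31 without specimen 6. Of these, 26 were lower and 1 was higher in MSC treated animals, with an unadjusted limma p under 0.05 in 4, all lower (background 0.67% lower), and an adjusted one in 0. Foxj1, the master regulator of motile ciliogenesis, had 127, 327 and 147 against 109, 150.1 and 134, and Hydin, a central pair protein, had 31.3, 247 and 129 against 72.7, 99.1 and 50.5. Drc7, of the nexin-dynein regulatory complex, had 47.5, 133 and 60.8 against 21.8, 42.9 and 30.1, without overlap of the groups. The exception in direction was Tppp3, a tubulin polymerization factor, with 1327, 737 and 458 against 1073, 705 and 1548.

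**Figure D3:**
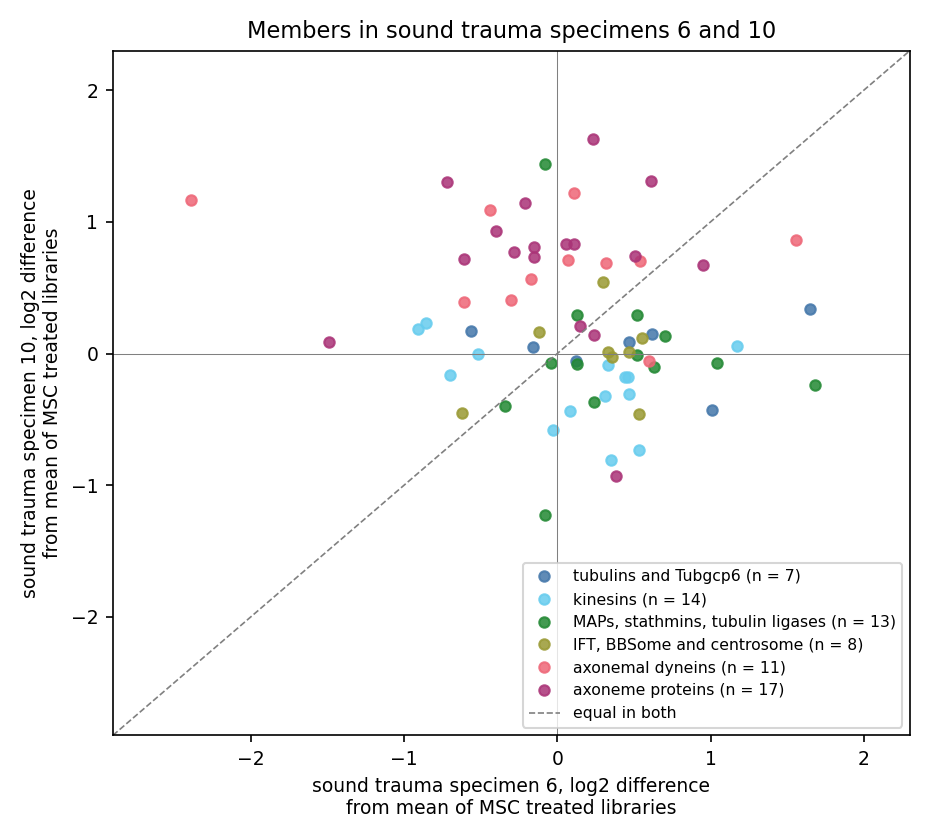
Each point is 1 of the 70 genes, placed by its log2 difference from the MSC treated mean in sound trauma specimen 6 (horizontal) and specimen 10 (vertical), with a dashed line of equality. The axonemal groups lie mostly above the line (23 of 28 genes), and the microtubule-associated proteins (11 of 13) and kinesins (10 of 14) mostly lie on the side where specimen 6 is higher.

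The kinesins and their partners, 14 genes, had a median log2 difference of -0.24, which ranged from -0.53 without specimen 10 to 0.14 without specimen 8. Specimen 8 was highest for 8 of them and specimen 10 lowest for 7. Kif5c, a heavy chain of kinesin-1 enriched in neurons, had 1463, 3724 and 608 against 702, 1235 and 1193. Specimen 8 was highest and specimen 10 lowest, both in the same group, and the log2 difference of -0.56 (SE 0.64, limma adjusted p 0.954) was 0.10 without specimen 8 and -1.21 without specimen 10. Kif5a, its relative in long axons (67.8% identical in coding sequence), had 2779, 5261 and 1242 against 1486, 2379.6 and 2918. Here too specimens 8 and 10 bracketed all MSC treated values.

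Kif1a, which carries synaptic vesicle precursors along axons, had 3669, 6929.5 and 2571 against 2613, 3936 and 4089.6. Its log2 difference of -0.21 (SE 0.39, limma adjusted p 0.961) ranged from -0.54 without specimen 10 to 0.18 without specimen 8. Kif1b, a motor for mitochondria and synaptic vesicle precursors, had 5169, 4917 and 3026 against 4424, 3464 and 3410.1, with specimens 6 and 8 high and specimen 10 lowest. Kif17, a motor of dendrites and of cilia, had 26.7, 100.4 and 17.9 against 21.8, 26.6 and 34.9. Apart from specimen 8, the Kif17 values of both groups overlapped.

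Kif1c, a widely expressed motor of vesicles, followed another order, with 6711, 1955 and 3114 against 4562, 2535 and 2312. Specimen 6 was highest, specimen 13 next and specimen 8 lowest, and the log2 difference of -0.20 (SE 0.49, limma adjusted p 0.974) ranged from -0.61 without specimen 8 to 0.28 without specimen 6. Klc2, a kinesin light chain, Kif1bp, a kinesin-binding protein, and Kif3a, a subunit of the motor of intraflagellar transport, were highest in specimen 8 and next in specimen 6, with 1.58 to 1.64 times the MSC treated mean in specimen 8. Kif26b, which takes part in Wnt signalling, had 4 times that mean in specimen 8 and a log2 difference of -0.67 (SE 0.59), which ranged from -1.17 without specimen 10 to 0.01 without specimen 8.

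Tubb5 had the highest level per length of all members in both groups. The authors' mean FPKM of sound trauma and MSC treated animals was 192 and 219.9 for Tubb5, 175 and 58.8 for Tubb4a, 132 and 116 for Tuba4a and 105 and 118 for Tubb4b. Tubb4a, a beta-tubulin of neurons and myelinating glia, had scaled counts of 2427, 8280.4 and 893 against 803, 1663 and 1304. Specimen 8 had 6.59 times the MSC treated mean and specimen 6 1.93 times, whereas specimen 10 had 0.710 times. Its log2 difference of -1.12 (SE 0.78, limma adjusted p 0.954) was -0.29 without specimen 8 and -1.90 without specimen 10.

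Tuba8, an alpha-tubulin, had 1276, 337 and 515 against 678, 335 and 293. Specimen 6 was highest, followed by specimens 13 and 10, and the log2 difference of -0.58 (SE 0.54, limma adjusted p 0.954) ranged from -1.0 without specimen 8 to -0.04 without specimen 6. Tuba4a had 6410.0, 4080.5 and 4651 against 4281, 4223 and 4049, again with specimen 6 above libraries that lay close together. The gamma-tubulin gene Tubg1, whose product nucleates microtubules, had 221 to 331, and Tubgcp6, of the gamma-tubulin ring complex, had 482 to 910.2. Over the 7 tubulin members the median log2 difference was -0.31, from -0.42 without specimen 10 to -0.06 without specimen 6.

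**Figure D4:**
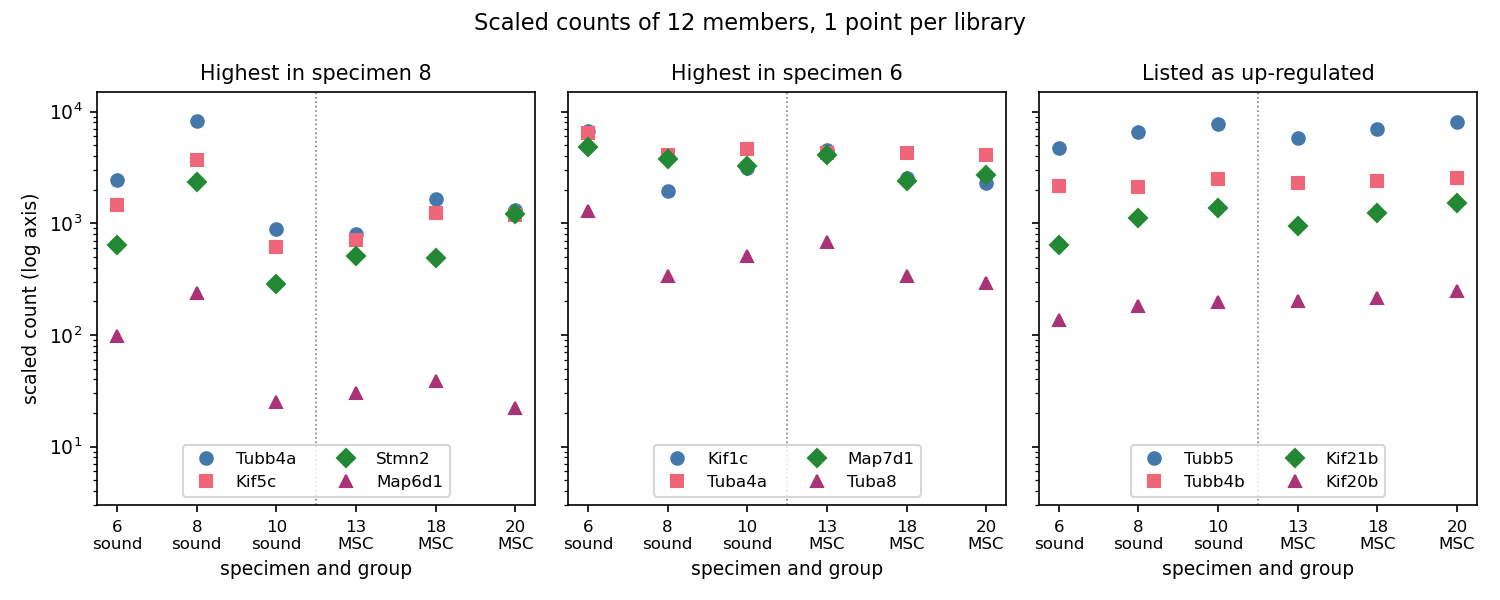
Scaled counts (log axis) of 12 genes, chosen after their values were seen, are plotted by library with 1 point per animal and a dotted line between the groups. Tubb4a, Kif5c, Stmn2 and Map6d1 peak in specimen 8 (Tubb4a at 8280.4), Kif1c, Tuba4a, Map7d1 and Tuba8 peak in specimen 6 (Kif1c at 6711), and Tubb5, Kif21b and Kif20b are lowest in specimen 6 (Tubb5 at 4683).

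The microtubule-associated proteins, stathmins and related enzymes, 13 genes, had a median log2 difference of -0.39, which was -0.26 without specimen 8 and -0.62 without specimen 10. Specimen 8 was highest in 10 of them and specimen 6 exceeded specimen 10 in 11. Map6d1, a relative of the neuronal microtubule stabilizer Map6, had 97.3, 239 and 25.0 against 30.1, 38.8 and 22.3. Specimens 6 and 8 were high and specimen 10 lay within the MSC treated range, with a log2 difference of -1.47 (SE 0.78, limma adjusted p 0.954) that was -0.72 without specimen 8 and -2.32 without specimen 10. Stmn2, a stathmin of growing and regenerating axons, had 639.7, 2352 and 289 against 513, 492 and 1222. Its log2 difference of -0.16 (SE 0.78, limma adjusted p 0.985) ranged from -0.86 without specimen 10 to 0.65 without specimen 8. It was -0.59 without specimen 20 and 0.03 and 0.06 without specimens 13 and 18.

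Dclk1, a doublecortin-like kinase of neurons, had 1202, 2075 and 1177 against 1101, 1350.2 and 1275, so that specimen 8 alone stood out. Stmnd1, a stathmin domain gene, had 4.64, 43 and 15.2 against 1.04, 6.13 and 13.6, with 1 read in specimen 13. Its order in the sound trauma animals was that of most axonemal genes. Dcx, the doublecortin of migrating neurons, had 30.1, 37.3 and 13.4 against 13.5, 19.4 and 10.7. Stmn3, Stmn4, Dclk2, Mapre3, which marks growing microtubule ends, and Ttll5, a tubulin polyglutamylase, were all highest in specimen 8, at 1.83 to 4.19 times the MSC treated mean.

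Map4, the widely expressed stabilizer of microtubules outside neurons, had 5733, 4597 and 3965 against 4737, 3579 and 3747. Map7d1, a relative of the kinesin-1 activator Map7, had 4801, 3763 and 3239.5 against 4060.1, 2370.4 and 2687. In both, specimen 6 was highest and specimen 13 next. Their log2 differences were -0.24 (SE 0.20, limma adjusted p 0.954) and -0.39 (SE 0.25, limma adjusted p 0.954), and they ranged from -0.36 to -0.10 for Map4 and from -0.62 to -0.23 for Map7d1 when each animal was left out.

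Among the markers, central neuron genes had the order 8, 6, 18 over the libraries, and cerebellar granule neuron genes (12 of 14 named; sums of 4687, 26847 and 1874 against 1904 to 2665, with Barhl2 at 0 in specimens 10 and 18) were highest in the same specimens. Central glia genes (12 of 13 named) had sums of 30269, 46602 and 13685 against 12116, 28445 and 14899. Spiral ganglion neuron genes (5 of 11 named, of which Slc17a7 is also in the central neuron list) had 3608, 8003 and 2245 against 2205, 3426 and 2778. Among them Pou4f1, listed as up-regulated, was lowest in specimen 8, with 102, 57.4 and 94.7 against 87.3, 120.5 and 197. Skeletal muscle genes had the order 6, 13, 10, with specimen 8 lowest. Of the 8 members highest in specimen 6, Kif1c, Tuba8, Map4 and Map7d1 had specimen 13 second. Kif1b, Tubg1 and Bbs2 had specimen 8 second, and Tuba4a had specimen 10 second. In Map4 and Map7d1, specimen 8 lay above specimens 10, 18 and 20. None of the named central neuron, glia, spiral ganglion or muscle markers was at 0 in any library. What part the cell types of these lists had in the tubulin, kinesin and microtubule-associated values was not tested.

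**Figure D5:**
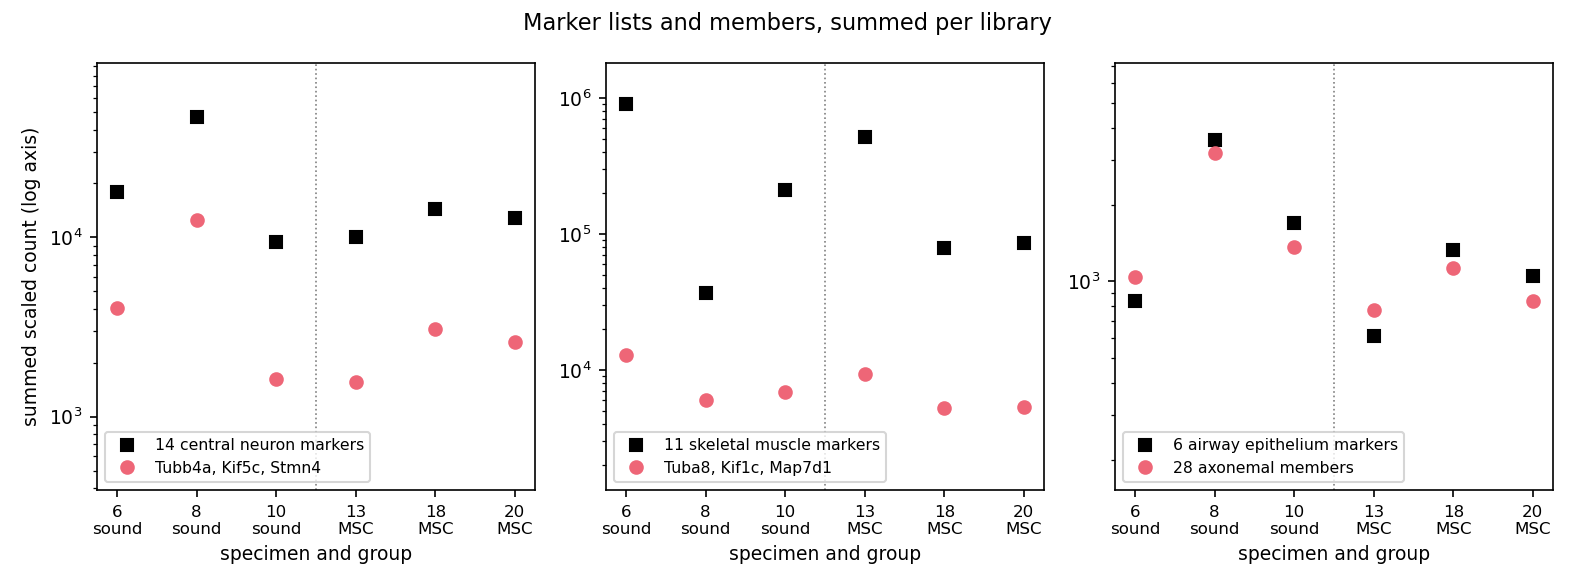
Summed scaled counts per library (log axes) of a marker list (black squares) and of members (red circles): central neuron markers with Tubb4a, Kif5c and Stmn4, skeletal muscle markers with Tuba8, Kif1c and Map7d1, and airway epithelium markers with the 28 axonemal members. The genes shown with the first and second list were chosen after their values were seen. Their shared highest library with the markers, specimen 8 and then 6, was set by that choice. In the last panel specimen 8 is highest for both, and the airway list itself holds the ciliary genes Foxj1 and Dynlrb2.

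A list of 63 other genes of axonal transport and neuronal microtubules held 28 named genes that are no members and were likewise chosen by the authors' comparison. Their median log2 difference was -0.36, with 24 lower, 4 higher and 0 with an unadjusted limma p under 0.05 (backgrounds 0.67% lower and 1.68% higher), and it ranged from -0.70 without specimen 10 to -0.08 without specimen 8. Specimen 8 was highest in 21 and specimen 6 exceeded specimen 10 in 26. Clip3, a microtubule-binding linker protein, had 1937, 6505 and 936 against 1039, 1283 and 1499. Clip4, of the same family, had 1481, 374 and 567 against 898, 369 and 399, with specimens 6, 13 and 10 in the first 3 places as in Kif1c and Tuba8. No symbol of the cytoplasmic dynein family Dync (0 of 7 genes) or of the neurofilaments (0 of 3 genes) was in the authors' lists, in which 162 genes carry no symbol. Of the light chains named otherwise, Dynll2 had 2858, 2829 and 1705 against 2163, 2209 and 1983, and Dynlt3 had 634, 569 and 593 against 658, 752 and 776.

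The centrosome, intraflagellar transport and BBSome members, 8 genes, had a median log2 difference of -0.38, which ranged from -0.46 without specimen 10 to -0.17 without specimen 8. Cep170b, a centrosomal and microtubule-binding protein, had 1024, 1915 and 516 against 750.1, 634 and 752. Specimen 8 was highest and specimen 10 lowest, as in Kif5c. Its log2 difference of -0.50 (SE 0.44, limma adjusted p 0.954) was -0.03 without specimen 8 and -0.98 without specimen 10. Cep76, which limits centriole duplication, had 279, 563 and 339 against 300.2, 279.8 and 330.0, with specimen 8 alone above the others. Ift172, of the anterograde transport complex in cilia, had 583, 613 and 467 against 540.2, 387 and 480.5, and the groups overlapped.

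Ift43, of the retrograde complex, was the member of this group in which specimen 10 was highest, with 110.1, 111 and 130.4 against 91.4, 87.8 and 89.3. The groups did not overlap, and the log2 difference of -0.38 (SE 0.17, unadjusted p 0.0634, adjusted p 0.954 in limma) was -0.42 without specimen 8 and -0.30 without specimen 10. The BBSome subunits Bbs1 and Bbs2, which sort cargo into cilia, had 153 to 183 in MSC treated animals and 172 to 309 in sound trauma animals. Cep131, of the centriolar satellites, had 272, 332 and 197 against 196, 193 and 198, so that specimen 10 lay within the range of the treated animals.

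The 8 members listed as up-regulated were lowest in specimen 6 in 6 cases, and specimen 20 was the highest library in 6. Their median stood at -0.59 in specimen 6, -0.32 in specimen 8 and 0.03 in specimen 10 relative to the MSC treated mean on the log2 scale. Tubb5, a beta-tubulin of dividing and many other cells, had 4683, 6613 and 7746 against 5813, 6975 and 8099.6, and its log2 difference of 0.15 (SE 0.25, limma adjusted p 0.957) ranged from -0.05 without specimen 6 to 0.31 without specimen 10. Tubb4b, common in ciliated tissues, had 2154, 2102 and 2487 against 2283, 2377 and 2550.0, the narrowest range of the beta-tubulins. It did not take the order of the axonemal genes, since specimen 8 was its lowest library.

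Kif20b, a kinesin of cell division, had 136, 181 and 197 against 202, 213 and 248, without overlap, a log2 difference of 0.38 (SE 0.19, unadjusted p 0.0936, adjusted p 0.954 in limma) that ranged from 0.22 without specimen 6 to 0.49 without specimen 10. Kif21b, a motor of neurons and immune cells, had 644, 1117 and 1385 against 940.2, 1244 and 1535, with a log2 difference of 0.28 (SE 0.32) that ranged from -0.03 without specimen 6 to 0.52 without specimen 10. Kif13b had 1050.0, 1142 and 1508 against 1431, 1640.2 and 1458, and Kif19a, which limits the length of motile cilia, had 501, 620.5 and 1062 against 846, 977 and 903. For Kif13b specimen 10 lay within the range of the treated animals, and for Kif19a it was the highest of all libraries.

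Bbs12, a chaperonin-like factor that assembles the BBSome, had 19.7, 23.9 and 22.3 against 29.1, 29.6 and 34.0, and Dclk3, a doublecortin-like kinase, had 52.2, 51.6 and 50.03 against 61.3, 62.3 and 76.7. In these genes all sound trauma animals lay below all treated ones, at log2 differences of 0.47 (SE 0.25) and 0.37 (SE 0.20) with a limma adjusted p of 0.954 each. The cell cycle markers Top2a and Cenpf, the named ones of 13, were also lowest in specimen 6, with sums of 1419, 2647 and 3572 against 2479.9, 3175 and 3363. Their part in the values of the listed up-regulated members was not tested.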

How the data were processed

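Reads were trimmed and aligned to the C57BL/6NJ genome by the authors in the AIR software. They deposited a signal for 41096 genes, the read count multiplied by 1 TMM factor per library. The counting tool, its strand setting and its handling of shared reads are not given in the sources used here. Every value (100%, tolerance 1e-06) divided evenly by what 1 read is worth in its library, which gave back the reads. The lists deposited by the authors hold symbols, group mean FPKM, a log2 fold change and an FDR, of which the last 2 were not used. FPKM is quoted as the authors' mean.

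Members were matched by symbol pattern, with 0 Map kinases among them. The members, role groups, gene lists and markers were chosen with earlier results of these data known. All genes that passed filterByExpr on recovered reads (15970 of 25369 with a read) were tested with limma-trend on log2(scaled count + 1), which understates changes of low genes, with Benjamini-Hochberg adjustment over all of them. The floor was set at 3 reads in a library, for counting error only. Values per library were given, by rule, for the 3 most abundant and the 2 most variable tested members of each role group. Any other member was named after its values were seen.

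Alternatives were pseudocounts of 0.1 and 10, no filter, at least 10 reads in every library, median ratio, total count and upper quartile scaling, edgeR quasi-likelihood, DESeq2 and limma-voom on recovered reads, and each animal left out. The fits were tested on simulated data. The tests used DESeq2 1.42.0, edgeR 4.0.16 and limma 3.58.1 under R 4.3.3, and tables were handled with pandas 2.3.3 in Python 3.11.15. The labels name no batch.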

Additional observations from a re-analysis of the deposited data

How the results depend on the processing

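With 3 animals per group, a single library could move a value. No paired analysis was possible because the groups share no specimen number. Leaving out each animal in turn gave 0 to 1 genes of all tested with an adjusted p under 0.05 in limma (1 without specimen 10), a median log2 difference of the tubulins from -0.42 to -0.06 (-0.06 without specimen 6) and of the kinesins from -0.53 to 0.14 (0.14 without specimen 8). Without specimen 8 the sign changed in 10 members (Dclk1, Dnah12, Dnah3, Kif17, Kif1a, Kif26b, Kif5a, Kif5c, Stmn2 and Stmn3). It changed in 3 without specimen 6 (Kif1c, Kif21b and Tubb5), in Dnah3 without specimen 10 and in Stmn2 without specimen 13 or 18, and in 0 members under the other alternatives run. Under total count scaling, which moved the median of all genes to 0.07, specimen 6 was highest for 5 members in place of 8. The cause of these moves, beyond the animal left out or the scaling, was not tested. Low counts limit Cfap58, Cfap157, Dnah3, Tekt4, Tekt5 and Stmnd1, each with at least 1 library at 3 reads or fewer.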
